A study of Arabidopsis thaliana with 22 samples.

Results

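Polysomal and non-polysomal RNA of wild-type Arabidopsis thaliana were compared here to describe which mRNAs were well and which poorly loaded with ribosomes in normal seedling shoots. The comparison rests on 8 of the 22 ATH1 arrays of the series. They are the 4 arrays of wild-type polysomal RNA (PL) and the 4 of wild-type non-polysomal RNA (NP), biological replicates 1 to 4 of each, and arrays of the mutant and of total RNA were not used. All 8 samples came from aerial parts of seedlings of the Columbia ecotype, which grew without any treatment for 10 to 12 days in continuous light at 22 °C on Murashige and Skoog agar with 1% sucrose. The 4 biological replicates were grown at different times. Each array measured 22746 probe sets after control probe sets were left out.

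A polysome is an mRNA that carries several ribosomes at once. On a sucrose gradient polysomes travel ahead of free mRNA and of mRNA with a single ribosome, and these slower forms make up NP. The translation state (TL) is the ratio of PL to NP of the same biological replicate, and it is given here as log2 TL, the log2 PL signal minus the log2 NP signal. An mRNA with a high TL is well loaded relative to other mRNAs, and one with a low TL is poorly loaded relative to them. The array medians were alike (4.89 to 4.99), so a log2 TL of 0 marks the average partition of these arrays and not equal numbers of molecules in PL and NP. Chloroplasts and mitochondria translate the mRNAs of their own genomes on their own ribosomes, which resemble those of bacteria, while mRNAs from the nucleus are read by 80S ribosomes in the cytosol. In whole shoots, fewer cells of a type and less RNA per cell cannot be told apart.

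The tissue label was set against defining markers. Of 7 leaf mesophyll markers on the list, only RCA (Rubisco activase) had a probe set with 1 annotated gene, and its mean log2 signal of 3.89 lay below the median of every array. Leaf genes outside that list were PSAE-1 at 13.15, LHCB4.1 at 12.65 and PRK at 10.71, and these were picked after their signals were seen. Of 8 root markers, 3 had such a probe set. EXPA7 and EXPA18, root hair expansins, gave 3.88 and 3.99, while PYK10, a beta-glucosidase of endoplasmic reticulum bodies known from roots and young seedlings, gave 9.71. The part of roots or hypocotyls in the signal of PYK10 was not tested.

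The 4 replicates gave similar translation states. Across all probe sets, log2 TL of any 2 replicates had a Pearson r of 0.805 to 0.879 (6 pairs), and 0.862 to 0.928 across the 11374 probe sets whose mean signal lay at or above the median. Genes are not independent replicates, so these values are descriptive. Mean log2 TL ranged from −3.36 to 3.90 with a median of −0.10, and the median SD over replicates was 0.222. Replicate 1 had a wider spread of log2 TL across probe sets (SD 0.72) than replicates 2, 3 and 4 (0.61 to 0.62). The number of arrays limits the precision of every value below.

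With limma, at a false discovery rate (FDR) below 0.05, 5788 probe sets (25.4%) were higher in PL and 6477 (28.5%) were higher in NP. With the added criterion of a 2-fold difference, 1534 (6.74%) were higher in PL and 605 (2.66%) in NP, so 71.7% of the 2-fold calls pointed to PL. That split depends on scaling. The upper quartile of signal was larger on PL arrays (6.56 to 6.67) than on NP arrays (6.27 to 6.50) and the lower quartile was smaller (3.27 to 3.38 against 3.51 to 3.71). After the deposited values of the 8 arrays were quantile-normalized once more, to one distribution, 1023 probe sets were higher in PL and 848 in NP, and PL took 54.7% of the calls. PL and NP arrays did not overlap at all for 8288 probe sets (36.4%), and log2 TL had the same sign in all 4 replicates for 14337 (63.0%).

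The median log2 TL changed with signal level. Over eighths of the probe sets ordered by mean signal it was −0.17, −0.27, −0.29, −0.11, 0.07, 0.16, 0.27 and 0.36, and it lay between −0.05 and 0.05 in every eighth after the second quantile normalization. The median was 0.20 at or above the median signal and −0.21 below it. Of the 11374 probe sets at or above the median signal 43.3% were higher in PL and 21.3% lower at the FDR, 12.5% and 4.2% with the 2-fold criterion, and PL and NP arrays did not overlap for 43.1%. The median of each gene list below is followed by its value after the second normalization, here called renormalized. The shares of 25.4% higher and 28.5% lower over all probe sets, and of 43.3% and 21.3% over those at or above the median signal, are the background for the counts of each list.

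**Figure D1:**
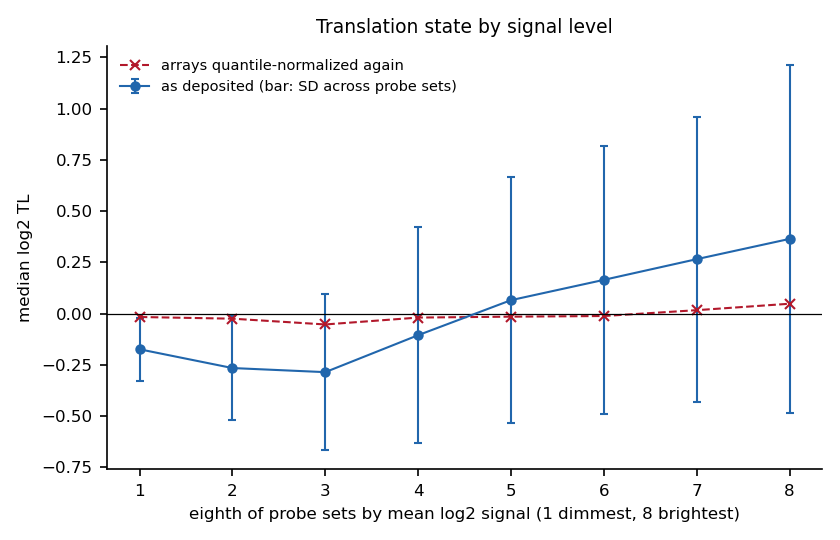
Median log2 TL (vertical axis) of 8 groups of equal size, ordered by mean log2 signal over the 8 arrays (horizontal axis, 1 the dimmest). Circles with bars of ± 1 SD across probe sets are the deposited values and run from −0.17 in the dimmest group to 0.36 in the brightest, while crosses are the values after the second quantile normalization and lie between −0.05 and 0.05.

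The best-loaded mRNA with 1 annotated gene was AT1G64370. Its PL signals were 10.08, 10.88, 10.73 and 10.59 in replicates 1 to 4 against NP signals of 6.43, 6.98, 6.69 and 6.59. All 4 PL arrays lay above all 4 NP arrays, by 3.90 ± 0.18 on the log2 scale (SD, n = 4), or 14.9-fold (FDR 6.8e-09). AT4G19200 followed with a log2 TL of 2.99 ± 0.24, and then NAI2, which encodes a component of endoplasmic reticulum bodies. NAI2 gave PL signals of 6.93, 7.58, 7.53 and 7.75 and NP signals of 3.82, 4.70, 4.61 and 5.03, a log2 TL of 2.91 ± 0.16. The lowest PL array of NAI2 stood above its highest NP array, and replicate 1 was the lowest in both fractions. CYS1, an inhibitor of cysteine proteases, had one of the smallest spreads among the well-loaded mRNAs, with PL signals of 9.89, 10.26, 10.07 and 9.61 and NP signals of 7.36, 7.76, 7.60 and 7.01. Its log2 TL was 2.52 ± 0.05 (5.75-fold, FDR 3.4e-08), and it kept that value while the signals of replicate 4 were the lowest in both fractions. The others among the 10 highest were AT4G34290 (2.83), AT5G45350 (2.71), AT1G18210 (2.58), AT1G48610 (2.54), AT4G28440 (2.46) and AT1G16210 (2.44), each with no overlap between fractions.

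Organelle transcripts were prominent at the other end. The paper states that its array data favour polyadenylated mRNAs and that polyadenylation in organelles precedes degradation. Values of organelle-encoded genes here and below therefore need not describe the bulk of their mRNA. Of the 605 probe sets at least 2-fold lower in PL, 396 had 1 annotated gene, and 36 of these were encoded by the plastid and 14 by the mitochondrion, 50 in all or 12.6%. Among the 667 such genes at least 2-fold higher in PL, 1 was organelle-encoded (0.15%). Organelle-encoded genes made up 92 of the 13513 probe sets with 1 annotated gene (0.681%). The lowest log2 TL of all belonged to psbN, a plastid gene whose product assists assembly of photosystem II, with PL signals of 5.96, 5.11, 5.21 and 4.74 and NP signals of 8.51, 8.44, 9.34 and 8.19. The fractions did not overlap, and log2 TL was −3.36 ± 0.65 (SD, n = 4), so that NP exceeded PL 10.3-fold (FDR 1.5e-07). Nuclear genes lay at this end too, and 6 of the 10 lowest mRNAs came from the nucleus.

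Those nuclear mRNAs were AT3G27340 (−2.89 ± 0.38), AT5G52780 (−2.73 ± 0.14), DI21 (−2.67 ± 0.35), AT5G58570 (−2.62 ± 0.17), AT2G46490 (−2.58 ± 0.05) and AT3G61200 (−2.55 ± 0.22). DI21, named for its induction by drought, gave PL signals of 6.84, 6.04, 5.90 and 6.21 and NP signals of 9.24, 8.89, 8.97 and 8.56. All PL arrays of DI21 lay more than 4-fold below its NP arrays in the same replicate. For AT5G58570 the signals in both fractions were higher in replicates 2 and 3 (5.69, 7.17, 7.16 and 5.55 in PL, 8.12, 9.84, 9.71 and 8.39 in NP), and its log2 TL stayed within an SD of 0.17.

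**Figure D2:**
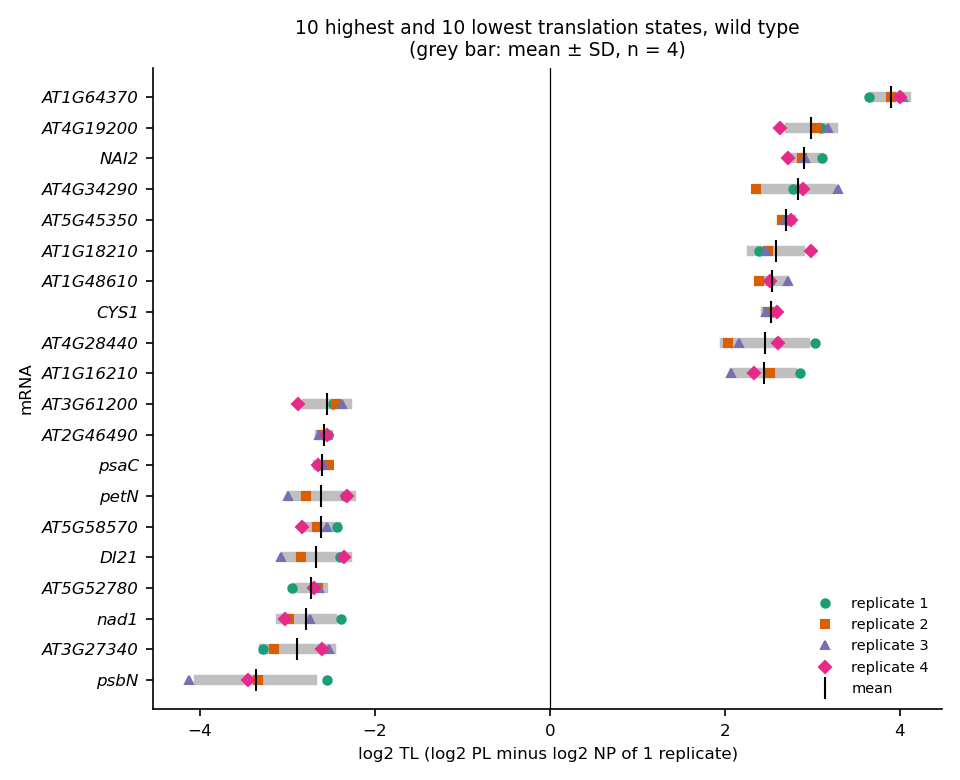
Log2 TL (horizontal axis) of the 10 highest and 10 lowest mRNAs among probe sets with 1 annotated gene, at or above the median signal and past the FDR, one row per mRNA. Coloured symbols are the 4 replicates, the tick is their mean and the grey bar ± 1 SD; the means run from 3.90 for AT1G64370 to −3.36 for psbN, and every replicate lies on its mRNA's side of 0.

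Of the 69 plastid-encoded genes measured, 54 were lower in PL, 6 were higher and 9 did not pass, against 28.5% lower and 25.4% higher among all probe sets. Their median log2 TL was −1.04, compared with −0.10 for all probe sets, and the 4 replicate medians lay between −0.99 and −0.92. Of the 69, 61 had a signal at or above the array median, and their median was also −1.04. Renormalized, the median of the 69 was −1.22. The plastid genome encodes core subunits of the photosynthetic complexes and part of its own expression machinery, and these groups are described in turn.

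All 6 measured subunits of the cytochrome b6f complex, which carries electrons between the photosystems, were lower in PL, with a median of −1.73 (renormalized −1.74). The small subunits petN (−2.61 ± 0.33), petG (−2.38 ± 0.25) and petL (−2.29 ± 0.17) had the lowest values. PL signals of petL were 8.53, 8.91, 9.05 and 8.16 and NP signals 11.03, 11.01, 11.28 and 10.48, which did not overlap. The large subunits stood closer to 0. The genes petD, petB and petA gave −1.18 ± 0.20, −0.65 ± 0.21 and −0.49 ± 0.53, and PL and NP arrays overlapped for petB and petA. In replicate 1, petA was the only one of these values above 0, at 0.30, and the call for petA was lost without replicate 2, 3 or 4 (−0.42 to −0.37).

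Of 20 plastid-encoded photosystem subunits 16 were lower in PL, none was higher, and their median was −1.03 (renormalized −1.31). The D1 protein of the photosystem II reaction centre, which is damaged and replaced in the light, is encoded by psbA, a gene chosen here after its values were seen. Its PL signals were 11.76, 11.15, 11.29 and 11.07, its NP signals were 13.59, 13.98, 13.87 and 13.45, and log2 TL was −2.40 ± 0.42 (5.29-fold more in NP, FDR 2.3e-07). The fractions of psbA did not overlap in any replicate. The iron-sulfur subunit psaC of photosystem I gave PL signals of 8.34, 8.15, 8.50 and 7.20 and NP signals of 10.98, 10.68, 11.08 and 9.84. Both fractions of psaC were lowest in replicate 4, and log2 TL nevertheless varied little (−2.60 ± 0.06). The reaction centre genes of photosystem I stood closer to 0, and psaB gave PL signals of 12.58, 12.96, 12.90 and 12.65 and NP signals of 12.73, 12.63, 13.03 and 13.10, which overlapped (−0.10 ± 0.32, FDR 0.54). Its partner psaA gave −0.13 ± 0.34 (FDR 0.42), and psbC, an inner antenna protein of photosystem II, gave 0.20 ± 0.45 (FDR 0.29).

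The plastid ATP synthase was divided, with 3 of 6 subunits higher in PL and 3 lower, and a median of 0.18 (renormalized 0.012). For the 5 at or above the median signal, which leave out atpI, it was −0.36. Catalytic subunit beta (atpB) was the only plastid gene at least 2-fold higher in PL, with PL signals of 11.47, 12.74, 12.48 and 12.65 and NP signals of 10.87, 11.44, 11.20 and 11.61. The ranges of atpB overlapped because replicate 1 was low in both fractions, while PL exceeded NP in each of the 4 replicates (1.05 ± 0.32, FDR 4.1e-05). The alpha subunit atpA gave 0.73 ± 0.18 and the membrane subunit atpI 0.76 ± 0.23, the latter at a low signal in both fractions. The 3 lower ones were atpE (−0.36 ± 0.08), atpF (−1.06 ± 0.36) and the ring subunit atpH (−1.59 ± 0.35). Subunits of the same complex thus lay on both sides of 0.

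Plastid ribosomal proteins encoded in the plastid had a median of −0.96 (renormalized −1.26), with 9 of 15 lower, 2 higher and 4 not past the FDR. The higher pair was rpl22 (0.97 ± 0.43) and rps3 (0.44 ± 0.15), and rpl32 (−2.06 ± 0.09) and rps4 (−1.498 ± 0.04) were among the lowest. PL signals of rps4 were 10.80, 11.26, 11.39 and 10.75 and NP signals 12.32, 12.78, 12.83 and 12.28. Both fractions of rps4 were higher in replicates 2 and 3 than in 1 and 4, and log2 TL had an SD of 0.04. The call for rps3 was lost when renormalized (0.073). The NDH complex, which returns electrons to the photosynthetic chain, had 9 of 10 subunits lower (median −0.91, renormalized −1.01), from ndhE (−1.90 ± 0.31) and ndhD (−1.74 ± 0.46) up, while ndhA was higher (0.70 ± 0.35). Of 4 subunits of the plastid RNA polymerase, 3 were lower (median −0.66, renormalized −0.82), among them rpoC1 (−1.86 ± 0.24) and rpoA (−0.82 ± 0.09). The large subunit of Rubisco, rbcL, chosen after its value was seen, gave PL signals of 7.78, 7.81, 8.03 and 7.24, NP signals of 8.88, 8.65, 9.28 and 8.70 and a log2 TL of −1.17 ± 0.26.

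**Figure D3:**
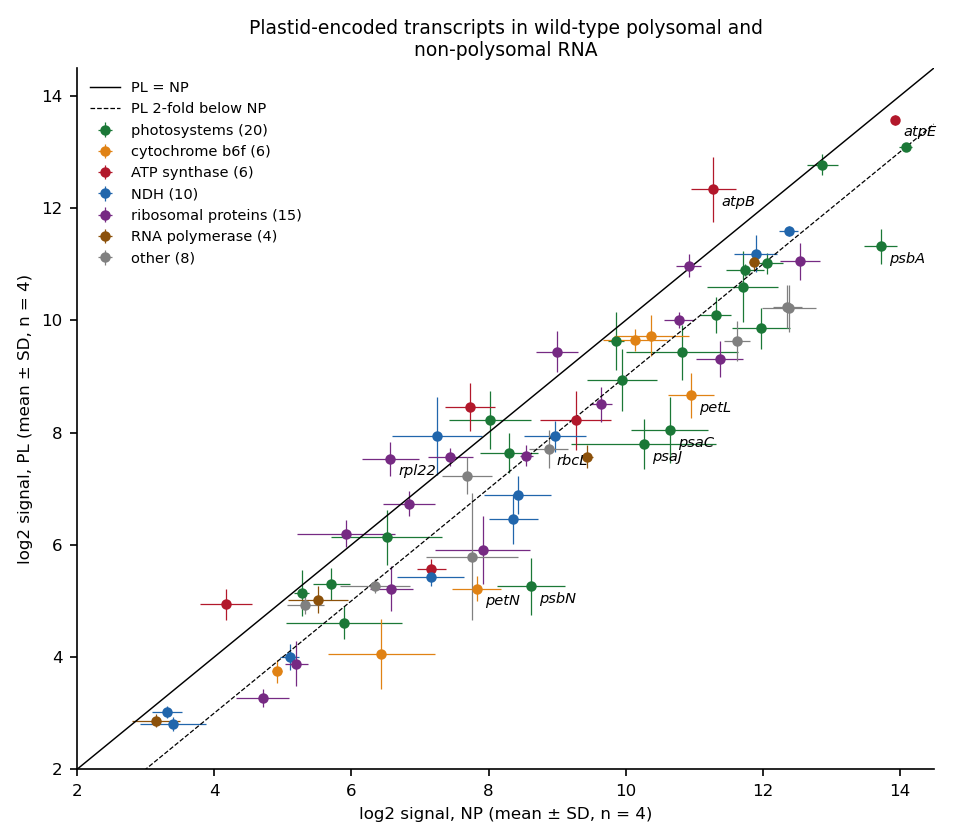
Mean log2 signal in PL (vertical axis) against NP (horizontal axis) of the 69 plastid-encoded genes, coloured by complex, with bars of ± 1 SD over 4 replicates. The solid line marks equal signals and the dashed line a PL signal 2-fold below NP; most points lie under the solid line, psbA and psbN lie far below it, and atpB lies above it.

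Mitochondrion-encoded transcripts were also lower in PL, for 20 of 23 probe sets, and none was higher. Their median was −1.16 (renormalized −1.05), with replicate medians between −1.22 and −0.998. Only 7 of the 23 had a signal at or above the array median, and their median was −1.85. The nad1 gene, which encodes a subunit of respiratory complex I, had 7 probe sets. The one with the lowest value gave PL signals of 3.50, 3.79, 3.98 and 3.52 and NP signals of 5.88, 6.78, 6.72 and 6.54, a log2 TL of −2.78 ± 0.29, and another gave −2.50 ± 0.42. The remaining probe sets of nad1 ranged from −2.33 to −0.44, all of them below the median signal. The one at −0.44 had a mean signal of 3.77, overlapping fractions and a value of 0.23 in replicate 3. The probe sets of this gene thus disagreed in size, while the means of all 7 lay below 0. Another complex I gene, nad4, gave −1.81 ± 0.34, and ccb382, a gene of cytochrome c maturation, gave −1.07 ± 0.20. The cox1 gene of cytochrome c oxidase had PL signals of 4.19, 4.21, 4.43 and 4.02 against NP signals of 5.38, 7.29, 7.61 and 6.27. Its PL signals hardly moved, whereas NP of replicate 1 lay below the other NP arrays, and log2 TL was −2.43 ± 0.92. The probe set of orfX (−1.29 ± 0.27) can cross-hybridise, so its value is uncertain.

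Most nuclear genes of plastid ribosomal proteins stood on the other side of 0. Of 49 nuclear-encoded plastid ribosomal proteins 33 were higher in PL and 5 lower, with a median of 0.79. It was 0.46 when renormalized. Of the 44 at or above the median signal 33 were higher and 3 lower, beside 43.3% and 21.3% of all such probe sets. The median of these 44 was 1.04. PRPL11, protein L11 of the plastid ribosome, gave PL signals of 9.83, 8.78, 8.62 and 9.90 and NP signals of 7.46, 6.53, 6.70 and 7.45. PL exceeded NP 4.75-fold (2.25 ± 0.23, FDR 1.1e-07) with no overlap. EMB3105, also on this list and named for an embryo-defective mutant, gave 11.28, 10.28, 10.13 and 11.31 in PL and 9.54, 8.04, 7.90 and 9.40 in NP. Both fractions of EMB3105 were higher in replicates 1 and 4 than in 2 and 3, and log2 TL stayed at 2.03 ± 0.25. AT4G01310 (1.80 ± 0.17) was higher as well. The 5 lower members included AT4G17560 (−0.56 ± 0.11), AT3G20230 (−0.54 ± 0.32) and PSRP5 (−0.41 ± 0.34), which lost its call without replicate 2, 3 or 4 (−0.41 to −0.29). Subunits of the same ribosome thus had a median of 0.79 where the gene is nuclear and of −0.96 where it is in the plastid genome.

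Genes of chlorophyll synthesis were among the best loaded, with 4 of 5 higher in PL, none lower and a median of 1.54 (renormalized 1.40). All 5 were at or above the median signal, where 43.3% of all probe sets were higher and 21.3% lower. GSA1, which makes the precursor 5-aminolevulinate, had PL signals of 7.54, 6.63, 6.60 and 7.12 and NP signals of 4.79, 4.96, 4.80 and 5.11. The fractions did not overlap, and log2 TL was 2.06 ± 0.49 (4.17-fold, FDR 1.2e-06). HEMB1, which joins that precursor to porphobilinogen, gave 1.71 ± 0.09, CHLI2, a subunit of magnesium chelatase, 1.54 ± 0.40, and PORB, which reduces protochlorophyllide in the light, 1.21 ± 0.13. CHLM, the methyltransferase between chelatase and reductase, did not pass (−0.16 ± 0.12, FDR 0.22).

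The nuclear-encoded photosystem subunits PSBY (1.36 ± 0.22), PSAN (0.98 ± 0.13) and PSAE-1 (0.78 ± 0.20) were higher in PL, whereas PSBW gave 0.08 ± 0.16 (FDR 0.56). The median over these 4 was 0.88 (renormalized 0.77). The 3 light-harvesting genes on the list were all higher in PL by less than 2-fold (median 0.43, renormalized 0.30). All 3 encode the CP29 antenna of photosystem II, so other light-harvesting proteins are not covered. Values were 0.38 for LHCB4.1, 0.43 for LHCB4.2 and 0.61 for LHCB4.3. In the Calvin cycle, which fixes carbon, PRK (0.98 ± 0.29), SBPASE (0.77 ± 0.09) and AT1G56190 (1.32 ± 0.23) were higher and RCA was lower (−0.56 ± 0.34) at signals of only 3.72, 3.58, 3.55 and 3.58 in PL and 4.43, 4.51, 3.69 and 4.06 in NP, a call lost when renormalized (−0.34). The median over these 4 was 0.88 (renormalized 0.53).

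Nuclear-encoded mitochondrial ribosomal proteins had a share of PL-side calls near the background only at or above the median signal. Of 50 measured 21 were higher and 8 lower, where 25.4% and 28.5% of all probe sets were. Their median was 0.18 (renormalized 0.072). Of the 38 at or above the median signal 18 were higher and 3 lower, where 43.3% and 21.3% of all such probe sets were. AT1G24240 (1.36 ± 0.14) was the highest of the 50, and AT5G09770 (−0.69 ± 0.24) was lower in PL.

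**Figure D4:**
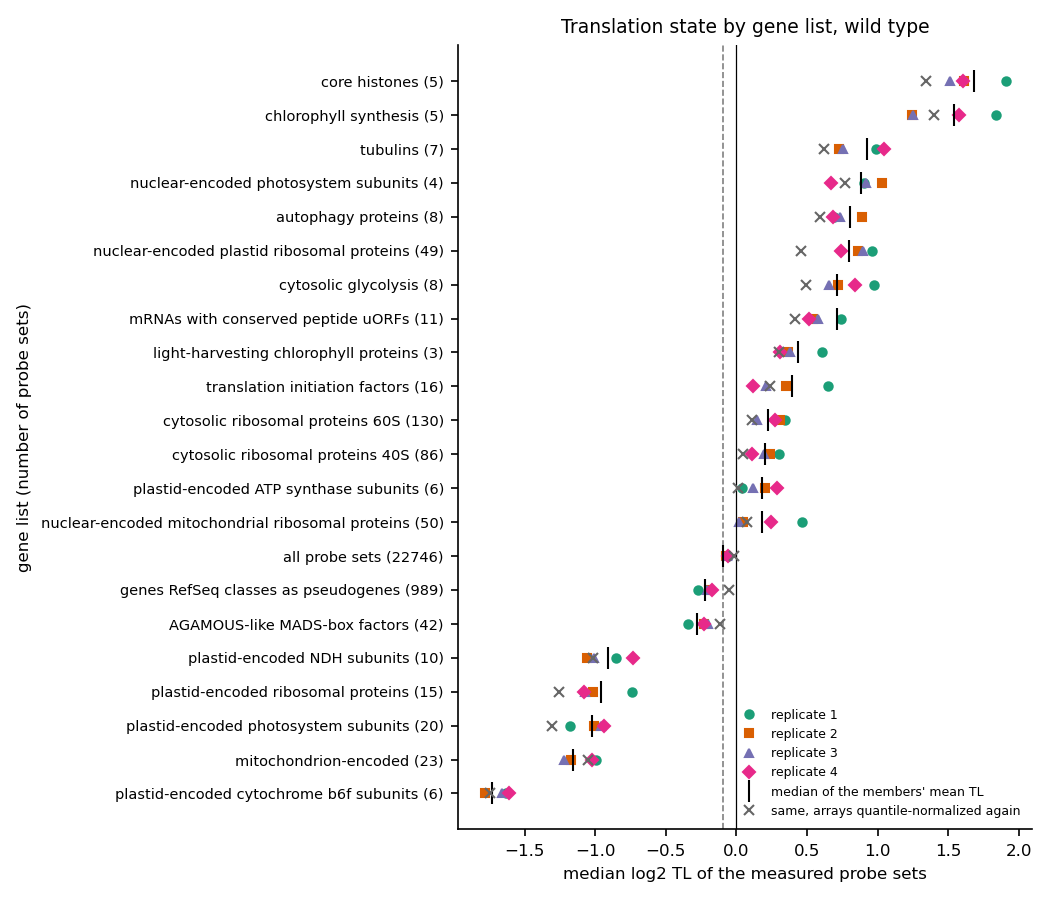
Median log2 TL (horizontal axis) of gene lists, with the number of measured probe sets in brackets. Coloured symbols are the medians of the 4 replicates and ticks the median of the members' means. Crosses are that median after the second quantile normalization, and the dashed line is the median of all probe sets (−0.10). Core histones (H2B genes and HTR12 only) lie at 1.68, plastid-encoded cytochrome b6f subunits at −1.73.

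Cytosolic ribosomal proteins as a whole had a median above that of all probe sets. Of 216 probe sets 100 were higher in PL, 42 were lower and 74 did not pass, beside 25.4% higher and 28.5% lower among all probe sets. The median was 0.22 (renormalized 0.087), against −0.10 for all probe sets. Of the 178 at or above the median signal 97 were higher and 33 lower, beside 43.3% and 21.3% of all such probe sets. Their median was 0.44, against 0.20 for all such probe sets. The small subunit (86 probe sets) had a median of 0.20 (renormalized 0.048) and the large subunit (130) one of 0.23 (renormalized 0.11). Most ribosomal proteins of Arabidopsis are encoded by several genes with nearly the same product. Among 66 families with at least 2 probe sets at or above the median signal, the highest and lowest paralog were at least 2-fold apart in 29, and in 47 the 4 replicates of one paralog did not overlap with those of the other. In 21 of the 66 one paralog passed the FDR on the PL side and another on the NP side. The highest and lowest paralogs are extremes by choice, and gaps in like groups of other probe sets were not computed. At or above the median signal, the quartiles of log2 TL were −0.11 and 0.90 for cytosolic ribosomal proteins. For all such probe sets they were −0.22 and 0.66. Quartiles over a whole class do not measure gaps within families, so whether these counts are particular to ribosomal proteins was not tested.

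The S12 family had the widest gap, 3.48 on the log2 scale. RPS12C gave PL signals of 10.32, 9.57, 9.52 and 9.88 and NP signals of 9.31, 8.66, 8.49 and 8.82, a log2 TL of 1.01 ± 0.07. RPS12A gave PL signals of 11.37, 10.77, 10.77 and 10.81 and NP signals of 11.73, 11.46, 11.56 and 11.55 (−0.64 ± 0.19). The paralogs thus lay on opposite sides of 0 in all 4 replicates. The lowest in this family was RPS12B with 4.56, 4.22, 4.60 and 4.59 in PL and 7.49, 6.71, 6.77 and 6.90 in NP (−2.47 ± 0.33), whose locus was not among the genes of the RefSeq table. The study's annotation of ribosomal proteins counts RPS12B as an incomplete open reading frame and a pseudogene. Without it the gap of S12 was 1.65, and S15a had the widest, 3.05.

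In the S15a family, RPS15aF had PL signals of 10.19, 9.71, 9.49 and 9.92 and NP signals of 8.64, 8.17, 7.81 and 8.34, so that PL was higher by 1.59 ± 0.07. RPS15aA went the other way, with 11.49, 11.03, 10.94 and 11.05 in PL and 12.77, 12.44, 12.50 and 12.66 in NP, a log2 TL of −1.46 ± 0.15. RPS15aB gave 1.21 and RPS15aD −0.15 (FDR 0.27). RPL18B (1.13 ± 0.15) and RPL18C (−1.33 ± 0.20) were 2.46 apart. Of the stalk protein P0, RPP0C was higher (0.48 ± 0.20), and RPP0D (−0.59), RPP0B (−0.90) and RPP0A (−1.82) were lower. The P0 gene RPP0A had PL signals of 5.94, 4.78, 4.72 and 5.23 and NP signals of 7.80, 6.60, 6.49 and 7.06, and replicate 1 was highest in both. RPL19B (1.68) and RPL19A (1.03) were higher and RPL19C lower (−0.38).

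Other well-loaded ribosomal protein mRNAs were RPS3aA (2.12 ± 0.15) and RPL6A (1.77 ± 0.22). The probe set of RPS3A and RPS3B gave 2.24 ± 0.28 while RPS3C gave 0.08 ± 0.26 (FDR 0.59). That probe set and the one of RPL27aB (1.69 ± 0.19) can cross-hybridise with further transcripts, which leaves the paralog uncertain. The same holds for the probe set shared by RPL41D, RPL41E and RPL41G. L41 is a very short protein of the large subunit, and its PL signals of 10.11, 9.54, 9.29 and 9.40 lay below its NP signals of 12.35, 11.56, 11.36 and 10.93 in each replicate (−1.96 ± 0.31). Of the 216 probe sets 5 belong to genes that RefSeq lists as transcribed pseudogenes, with log2 TL between −0.37 and 0.07 at mean signals of 2.53 to 3.00, and none of them passed the FDR.

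**Figure D5:**
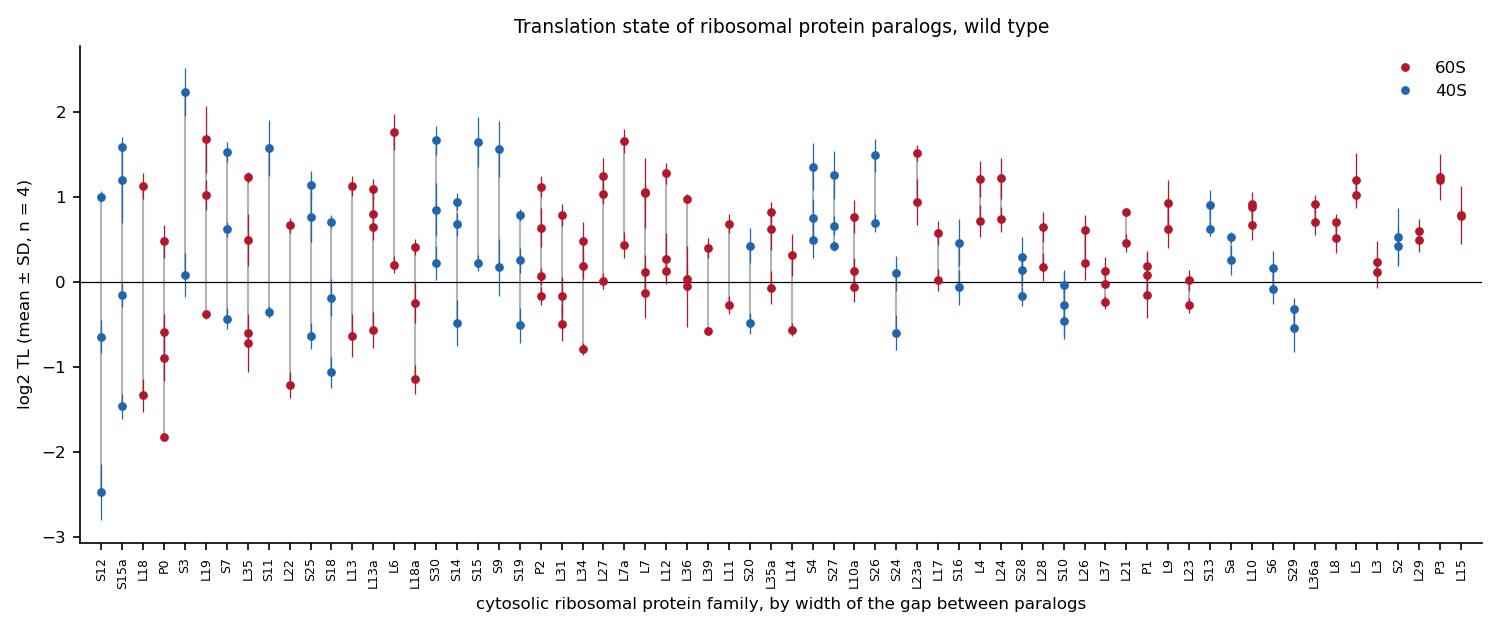
Log2 TL (vertical axis, mean ± SD over 4 replicates) of cytosolic ribosomal protein paralogs at or above the median signal, 1 column per family, ordered from the widest gap on the left; families of the 60S subunit are red and of the 40S subunit blue. S12 spans 3.48, from RPS12C at 1.01 to RPS12B at −2.47, which is annotated as a pseudogene, and the families on the right have paralogs side by side.

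Translation initiation factors bring the ribosome to the start codon. Of the 16 loci on that list 9 were higher in PL, 4 were lower, and the median was 0.40 (renormalized 0.24). Of the 14 at or above the median signal 8 were higher and 3 lower, beside 43.3% and 21.3% of all such probe sets. AT2G04520 was the highest, with PL signals of 9.44, 9.48, 9.24 and 9.30 and NP signals of 7.26, 7.38, 7.28 and 7.02 (2.13 ± 0.13, FDR 9.7e-08), followed by AT5G35680 (1.62 ± 0.33) and AT1G36730 (1.38 ± 0.08). The fractions of these 3 did not overlap. AT4G27130 (−0.83 ± 0.11), AT3G02200 (−0.78 ± 0.13) and AT5G15610 (−0.40 ± 0.11) were lower in PL.

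Upstream open reading frames (uORFs) lie ahead of the main coding sequence and can hold back its translation. Of 11 mRNAs with a uORF of conserved peptide sequence, 7 were higher in PL and 1 was lower, and the median was 0.71 (renormalized 0.42). All 8 of these are among the 10 at or above the median signal, for which the background is 43.3% higher and 21.3% lower. PMEAMT, a methyltransferase of phosphocholine synthesis, gave 1.18 ± 0.08, and LHW, a transcription factor of vascular development, gave 0.87 ± 0.34. SAMDC, which makes the decarboxylated donor for polyamine synthesis, did not pass (0.25 ± 0.29, FDR 0.11), and it passed without replicate 4 (0.39). The lower one was BZIP53, a transcription factor whose uORF is controlled by sucrose. Its PL signals were 8.31, 8.89, 8.90 and 8.11 and its NP signals 9.01, 9.73, 9.62 and 9.30, so PL was lower in each replicate (−0.86 ± 0.23, FDR 8.4e-05).

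Histones package DNA, and all 5 core histone genes on the list were higher in PL, with a median of 1.68 (renormalized 1.34). The list held only H2B genes and HTR12, so H2A, H4 and other H3 genes are not covered. All 4 at or above the median signal were higher, beside 43.3% of all such probe sets. HTB2, a histone H2B, gave PL signals of 8.10, 8.01, 7.75 and 7.96 and NP signals of 5.84, 5.80, 5.83 and 5.88. The 4 NP arrays of HTB2 were close to each other, and PL exceeded them 4.34-fold (2.12 ± 0.15, FDR 1.0e-07). HTB4 (1.70 ± 0.07), HTB1 (1.68 ± 0.21) and HTB11 (1.498 ± 0.32) are H2B genes as well. HTR12, the histone H3 variant of centromeres, was higher by less (0.53 ± 0.59), with 4.84, 4.05, 4.03 and 4.77 in PL and 3.90, 4.05, 3.98 and 3.62 in NP, close to each other in replicates 2 and 3. Without replicate 1 (0.40) or replicate 4 (0.33) HTR12 did not pass.

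Of 7 tubulin genes, which encode the subunits of microtubules, 6 were higher in PL and 1 was lower, with a median of 0.92 (renormalized 0.62). Of the 6 at or above the median signal 5 were higher and 1 lower, beside 43.3% and 21.3% of all such probe sets. TUB7 was the highest, with PL signals of 7.84, 7.87, 7.72 and 7.91 and NP signals of 5.85, 6.19, 6.03 and 6.09 (1.80 ± 0.14). The beta-tubulins TUB9 (1.11), TUB6 (0.92) and TUB5 (0.78) were higher too. The alpha-tubulins gave 0.32 ± 0.21 for TUA1 and −0.49 ± 0.10 for TUA6, and TUA6 was the one lower in PL. TUA1 did not pass without replicate 1, 2 or 4 (0.25 to 0.34), nor when renormalized (0.15).

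Lists of glycolysis, autophagy, vacuolar sorting and glutathione transfer had medians above 0, and their counts stand beside a background of 43.3% higher and 21.3% lower at or above the median signal. All 8 genes of cytosolic glycolysis were at or above that signal and higher in PL (median 0.71, renormalized 0.49), among them AT5G56350 (1.79 ± 0.19) and TPI, triosephosphate isomerase (1.24 ± 0.16). Of 8 autophagy genes, of which 7 were at or above that signal, 5 were higher and 1, below that signal, was lower (median 0.80, renormalized 0.59). They are led by the ATG8 family, which coats the autophagosome, with ATG8F at 1.25 ± 0.17, ATG8E at 1.06 ± 0.29, ATG8D at 0.88 ± 0.08 and ATG8H at 0.75 ± 0.14. ATG8B (−0.16 ± 0.21, FDR 0.26) and ATG8C (−0.15 ± 0.11, FDR 0.26) did not pass. Of 10 vacuolar sorting genes 5 were higher and 2 lower (median 0.51, renormalized 0.54), all of them among the 8 at or above the median signal, and the ESCRT-III genes VPS2.1 (1.70 ± 0.24), VPS46.2 (1.39 ± 0.33) and VPS2.2 (1.30 ± 0.20) were higher whereas VPS9B was lower (−0.50 ± 0.15). Glutathione transferases, which conjugate glutathione to reactive compounds, had 7 of 13 higher and 2 lower (median 0.48, renormalized 0.33), and of the 5 at or above the median signal 4 were higher and 1 lower, with GSTU20 at 1.78 ± 0.25 and GSTU16 at 1.42 ± 0.07.

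Other families had medians closer to that of all probe sets. The 20 beta-glucosidases had a median of −0.07 (renormalized 0.082), with 7 higher and 4 lower. Of the 8 at or above the median signal 6 were higher and none was lower, with a median of 0.73. PYK10, taken from the root markers, was higher, with PL signals of 10.07, 11.04, 10.91 and 10.26 against NP signals of 8.38, 9.13, 9.10 and 8.78 (1.72 ± 0.19), as were BGLU44 (1.71 ± 0.65) and BGLU33 (1.58 ± 0.16). Among 11 genes of RALF signalling peptides, 2 were higher and 4 lower (median −0.20, renormalized −0.13), and RALFL28 (2.04 ± 0.37) and RALFL32 (−1.81 ± 0.26) lay furthest apart. RALFL32 gave 7.48, 7.37, 7.30 and 6.99 in PL and 9.09, 9.40, 9.34 and 8.55 in NP, with no overlap. Of 7 Aux/IAA genes, repressors of auxin responses, IAA20 was higher (1.48 ± 0.50) and 3 were lower, including IAA29 (−0.71 ± 0.28), with a median of −0.10 (renormalized −0.29).

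Among 12 ubiquitin-conjugating enzymes, UBC28 was the only one at least 2-fold lower in PL. Its signals were 10.29, 10.65, 10.59 and 10.52 in PL and 12.02, 12.63, 12.76 and 12.52 in NP, which did not overlap (−1.97 ± 0.18, FDR 1.4e-07), while the list had 3 higher, 4 lower and a median of −0.08 (renormalized −0.19).

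Some lists had medians below 0. Of 42 AGAMOUS-like MADS-box factors, known for roles in flowers and gametophytes, 21 were lower in PL and 1 was higher, with a median of −0.28 (renormalized −0.11). Only 6 of the 42 reached the median signal. Of these 6, 1 was higher and 5 were lower, with a median of −0.42 (renormalized −0.61). The higher one was AGL87 (0.97 ± 0.15), and AGL26 was the lowest (−0.95 ± 0.17). The 989 probe sets of genes that RefSeq classes as pseudogenes had a median of −0.22 (renormalized −0.053) with 346 lower and 37 higher, and 75 of them reached the median signal, with a median of 0.05. The 12443 probe sets of protein-coding genes had a median of −0.12 (renormalized −0.036), with 2809 higher and 3751 lower. Cytochromes P450 (2 of 24 higher, 7 lower) had a median of −0.14 (renormalized −0.056). Only 6 of these 24 reached the median signal, with 1 higher, none lower and a median of 0.03. UDP-glucosyl transferases (12 of 47 higher, 4 lower) had one of −0.02 (renormalized 0.12). Their share of higher members was near the 25.4% of all probe sets, and their share of lower members was below the 28.5%. Of the 21 at or above the median signal 10 were higher and 2 lower, beside 43.3% and 21.3% of all such probe sets. The median of these 21 was 0.16.

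Levels varied between replicates more than some translation states did. Among probe sets at or above the median signal the median SD over replicates was 0.221 for PL, 0.260 for NP and 0.214 for log2 TL, and for 4727 of them (41.6%) log2 TL had the smallest of the 3. Among all probe sets at or above the median signal with 1 annotated gene, log2 TL had the largest SDs for psaJ (−2.47 ± 1.07), AT2G33850 (2.09 ± 1.01), AT2G06390 (−1.65 ± 0.95), AT5G64120 (1.07 ± 0.94) and cox1 (−2.43 ± 0.92). For psaJ, a small photosystem I subunit, NP signals were 10.80, 10.90, 10.69 and 8.69, and the low array of replicate 4 set its spread. AT5G64120 gave 5.34, 7.34, 6.95 and 5.51 in PL, where replicates 2 and 3 were high. Its NP signals were 5.28, 5.15, 5.50 and 4.95, with replicate 3 the highest, and varied less (SD 0.23 against 1.005 in PL).

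The length of the gene on the chromosome, from start to end of the RefSeq gene with introns, had little relation to log2 TL. Across 5949 genes at or above the median signal, Pearson r between log2 span and log2 TL was 0.0174. Median log2 TL was −0.0035 for genes under 1000 bases, 0.14 from 1000 to 2000, 0.15 from 2000 to 3000, 0.15 from 3000 to 5000 and 0.10 for longer genes.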

How the data were processed

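RNA from aerial parts of wild-type seedlings was fractionated by the authors on sucrose gradients into PL and NP and hybridized to ATH1 arrays. Per the labels and methods, the deposited values are log2 signals made by the authors with RMA in the affy package, and the submitters' processing notes also name MAS5. Their versions are not stated in the sources read, nor is the set of arrays that RMA took together. The deposited tables hold 34 further columns, of other arrays or of the authors' own TL values, which were not used in the main fit. The authors' wild-type TL values differed from log2 PL minus log2 NP by at most 0.001, and the replicate numbered 4 in the sample labels is numbered 5 in that table.

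Log2 TL was formed per replicate and tested against 0 in R 4.3.3 with the moderated statistics of limma 3.58.1, and p-values were adjusted by Benjamini-Hochberg across all 22746 probe sets. A 2-fold call needed an FDR below 0.05 and an absolute log2 TL of at least 1, and list members were counted at the FDR alone. PL and NP were paired by replicate number because both fractions of a replicate come from 1 harvest. Their deviations from the fraction means correlated at 0.609, 0.625, 0.552 and 0.548 in replicates 1 to 4. Nothing states how many plants entered each replicate. In simulated data, each of the 22746 probe sets had independent noise of its own SD. The test recovered 83% of 100 probe sets shifted by 1 and 99% of 100 shifted by 2, with 6 false calls among the unshifted ones. The simulation had few shifted probe sets and no difference in scale between PL and NP, so it does not give the error rate of the real comparison. Python 3.11.15 with pandas 2.3.3 and numpy 2.4.6 gave the counts, and matplotlib 3.10.9 the plots.

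Names came from the annotation of the array for probe sets with a single gene (13513, of which 283 can cross-hybridise) or from gene names in the paper's tables (500), while 548 had several genes and 8185 are unnamed here. Of 82 gene lists written, 57 were used, since 6 held members of another kind, 7 had fewer than 3 probe sets and 12 had no named probe set. Named genes had a signal at or above the median over the 8 arrays and were the 10 highest and 10 lowest mean log2 TL past the FDR with one sign in 4 replicates, the 3 highest and 3 lowest of each list (only part of which is printed), the 6 ribosomal protein families with the widest gaps and L41, and the 5 largest SDs. Members of lists of 6 or fewer were open to naming at any signal. The lists, the rule and the comparison were chosen with earlier results of these data known.

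The fit was repeated without pairing, with a trend and robust moderation, on brighter probe sets only, after median centring or a second quantile normalization, with other fold criteria, on the authors' TL values and without each replicate. Gene span, which took the place of protein length, and the S12 family without RPS12B were added after the data were seen.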

Additional observations from a re-analysis of the deposited data

Results flagged for a closer look

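In 10 of 151 groups of 4 replicate values of log2 TL, 1 replicate lay far from the other 3 relative to the range of the group. Chance alone gives about 1 in 20 such groups. Replicate 1 was the distant one for petA (0.297), atpF (−0.523), RPS15aD (0.064), TUB5 (0.991) and RALFL34 (−0.131). Replicate 2 was distant for rpl32 (−2.187) and AGL87 (1.192), replicate 3 for rps3 (0.217), and replicate 4 for ndhD (−1.054) and ATG8D (1.004). The value in brackets is the log2 TL of that replicate. For petA it lay on the other side of 0 from the mean, and the same was true of RPS15aD.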

How the results depend on the processing

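The main counts were 1534 probe sets at least 2-fold higher in PL and 605 higher in NP. Without the replicate block, that is with PL and NP unpaired, 1490 and 594 were called, all of them also called with pairing, and at the FDR alone 4091 and 4033. Without 1 replicate the counts ranged from 1442 to 1616 and from 583 to 636. In the 5687 brightest probe sets they were 969 and 289, at 1.5-fold 3607 and 2381, and with no fold criterion 5788 and 6477, as these criteria are narrower or wider by construction. The second quantile normalization shared 966 and 549 calls with the main fit, and at the FDR alone it gave 4955 and 4867. On that scale the core histones on the list, H2B genes and HTR12, had a median log2 TL of 1.34 (main 1.68). Cytosolic ribosomal proteins had 0.087 (0.22), nuclear-encoded plastid ribosomal proteins 0.46 (0.79) and plastid-encoded genes −1.22 (−1.04). At or above the median signal, cytosolic ribosomal proteins had 0.44, mitochondrion-encoded genes −1.85 (−1.16) and nuclear-encoded plastid ribosomal proteins 1.04. In the 5687 brightest the cytosolic and nuclear-encoded plastid ribosomal proteins had 0.43 and 1.20. Without 1 replicate plastid-encoded genes had medians between −1.004 and −0.994. Of 58 medians, that of all probe sets included, 12 changed sign with the second normalization, each 0.21 or smaller in size in the main fit. Of 146 named genes 136 passed the FDR, and 22 of these lost it under at least 1 alternative, 21 of them without pairing, and none changed direction. Leaving out 1 replicate cost petA, PSRP5, HTR12 and TUA1 their calls. The cause of these shifts was not tested. Low signal limits lists such as pseudogenes (75 of 989 at or above the median signal) and MADS-box factors (6 of 42).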
